A study of Homo sapiens with 6 samples.

Results

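The BCL2 family members followed here are 10 genes that regulate mitochondrial apoptosis, chosen by gene name from the 58735 genes of the count table and split by known function into 4 pro-survival genes (MCL1, BCL2L1, BCL2L2 and BCL2) and 6 pro-death genes (BAK1, BID, BAD, BIK, BCL2L11 and BMF). All 10 were found and all 10 had enough counts to be tested, among 19771 genes tested in all. The RNA came from HCT-8 cells, an established human colon cancer line grown as a monolayer in medium with fetal bovine serum. The 2 groups were 3 untreated control libraries and 3 libraries of cells given 5-fluorouracil (5-FU), a fluoropyrimidine, at the concentration that inhibits by 10%. Neither a molar dose nor a treatment time is stated in the labels. They also do not say whether libraries of 1 group came from separate cultures. The p-values therefore rest on the spread among these libraries alone, which may be technical.

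Cells commit to mitochondrial apoptosis when the effectors BAK and BAX form pores in the outer mitochondrial membrane and cytochrome c escapes. Pro-survival proteins (MCL1, BCL-xL from BCL2L1, BCL-w from BCL2L2, and BCL2) hold the effectors and their activators in check. BH3-only proteins, named for the single homology domain they share with the rest of the family, relieve that restraint or activate the effectors directly, and much of their control is at the level of the protein (cleavage of BID, phosphorylation of BAD, rapid turnover of MCL1), which RNA counts do not measure.

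In the 5-FU libraries transcripts on both sides of this balance were lower. MCL1 and BCL2 fell among the pro-survival genes, BID, BAD and BAK1 fell among the pro-death genes, and BMF alone of the 10 rose. BID showed the largest fall, to 0.307 of its control level, and BMF the largest rise, 3.90-fold. In edgeR's quasi-likelihood test 6 members passed at an adjusted p under 0.05, 5 lower and 1 higher, where 70.2% of all tested genes passed, 33.9% lower and 36.3% higher. Calls were about as frequent among the members as among genes at large. The directions depend on scaling: with upper-quartile factors 3 members were called lower and 4 higher. In the main fit the median log2 fold change was -0.38 over the 10 members, -0.38 over the 4 pro-survival and -0.21 over the 6 pro-death genes. Over all tested genes it was 0.09, but it differed with abundance. By quintile of mean count it was -0.54 in the highest, -0.39 in the next, -0.10 in the middle and 0.78 in the next-to-lowest. All members lie in these quintiles, most of them in the upper ones.

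Library facts frame these values. Count totals were 21659252 to 23495607 in control and 18459939 to 20613228 in 5-FU libraries, and mitochondrially encoded genes took 4.66% to 4.88% and 25.5% to 28.5% of them. Changes also went with abundance. In the quintile of tested genes with the highest mean count, which holds MCL1 and BCL2L1, 60.8% were lower and 17.5% higher. In the next quintile down, which holds BAK1, BID, BAD, BIK and BCL2L2, 53.4% were lower and 20.7% higher. The middle quintile, with BCL2 and BCL2L11, had 38.0% lower and 30.8% higher. In the next-to-lowest quintile, which holds BMF, 12.4% were lower and 54.1% higher. The part of either in the members' changes was not tested. All 9 colon epithelial markers were detected, at 4847 to 6674 summed CPM (TMM-normalized counts scaled to a common library size) in control and 3703 to 4592 in 5-FU libraries. Summed markers of blood cells were 6.51 to 7.11 and 5.37 to 6.96 CPM, of endothelium 2.17 to 3.12 and 3.503 to 5.50 CPM, and of fibroblasts 15.7 to 20.03 and 33.9 to 63.9 CPM, the last mostly COL1A1, with DCN at 0 and COL1A2 at 0 in every control library.

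**Figure D1:**
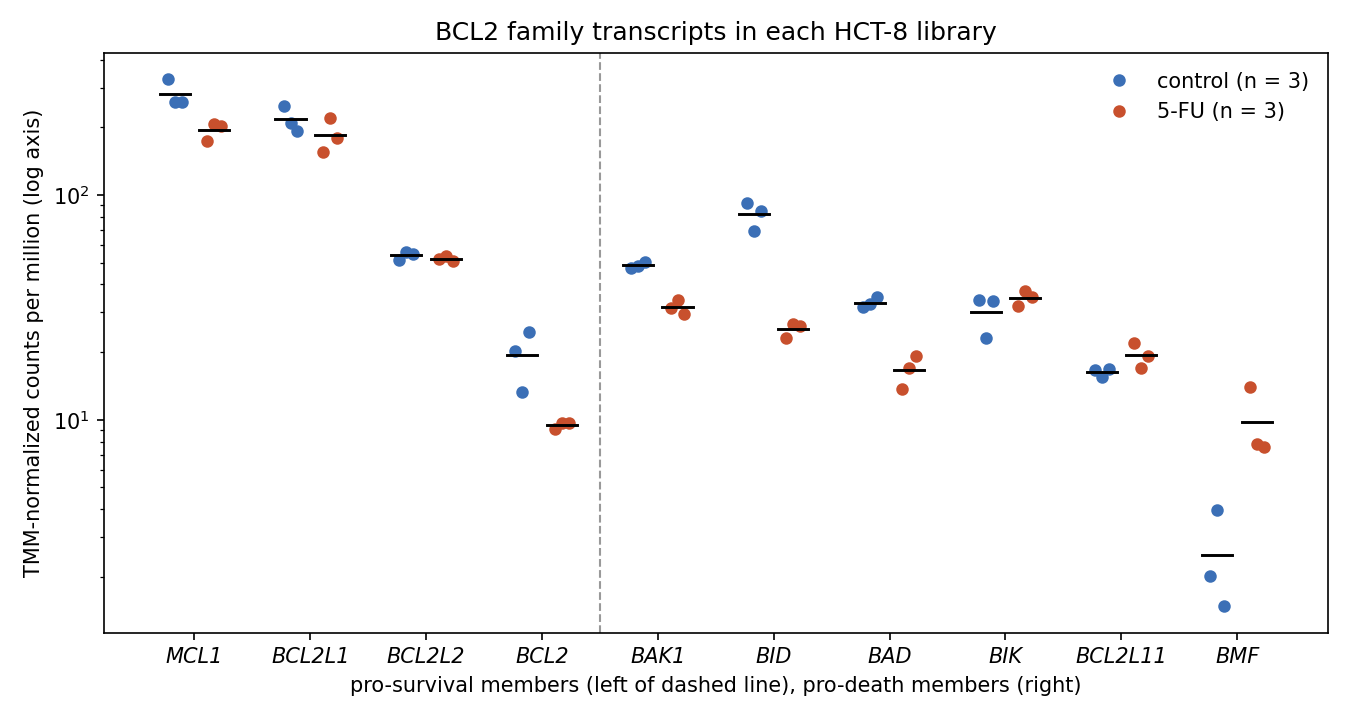
TMM-normalized CPM on a log axis for each member in 3 control and 3 5-FU libraries; each point is a library and each bar a group mean. The 5-FU points lie wholly below the control points for MCL1, BCL2, BAK1, BID and BAD and wholly above them for BCL2L11 and BMF.

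Promoter sequence is shown for 3 pro-death genes that moved in opposite directions, BID and BAK1, which fell, and BMF, which rose. RefSeq promoters (GRCh38.p14) were matched for 7 of the 10 members by symbol. The stretches below come from the 250 bases before the start nearest the annotated 5′ end, without bases that GENCODE places in an exon. All 3 are read 5′ to 3′ on the minus strand, at chr22:17774771-17774915, chr6:33580294-33580526 and chr15:40108893-40109129, and capitals mark CCAAT and GGGCGG, the letters of the CCAAT box and the GC box, or their reverse complements.
BID: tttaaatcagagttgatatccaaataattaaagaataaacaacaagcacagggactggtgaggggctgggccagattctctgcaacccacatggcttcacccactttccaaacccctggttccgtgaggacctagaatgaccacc
BAK1: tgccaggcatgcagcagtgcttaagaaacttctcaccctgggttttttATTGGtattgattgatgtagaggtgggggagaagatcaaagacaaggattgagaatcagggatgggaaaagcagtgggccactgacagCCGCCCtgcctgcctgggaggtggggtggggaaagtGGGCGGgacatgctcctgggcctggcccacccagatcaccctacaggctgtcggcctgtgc
BMF: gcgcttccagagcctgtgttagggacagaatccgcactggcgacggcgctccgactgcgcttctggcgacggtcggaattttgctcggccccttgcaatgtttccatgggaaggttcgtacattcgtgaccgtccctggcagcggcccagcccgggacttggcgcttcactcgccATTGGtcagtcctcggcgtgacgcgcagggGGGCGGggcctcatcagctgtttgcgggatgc

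In the full 250 bases of these windows, BAK1 held 1 CCAAT and 2 GGGCGG, BMF held 1 of each, and BID held neither. BID had 5 matched promoters and BMF 2. Only the window nearest the annotated 5′ end was searched for each gene. The start used lay 1536 bases from that end for BCL2L11, 359 for BCL2 and 105 for BID. All 250 bases of the BCL2 window lay in exons. Both motifs are common: on either strand, CCAAT is in 32.0% and GGGCGG in 42.6% of 35116 promoter windows of that length. The letters CACGTG (6.34% of windows), TTTCGCGC (0.439%) and the full p53 site without a spacer (0.0171%) were in none of the 7 matched windows, and GTAAACA, the letters of a FOXO site (2.98%), was found once, in BCL2L11. None of these motifs overlapped another in the windows shown. A match is only a description of the letters.

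Among the pro-survival genes, MCL1 encodes a short-lived protein that restrains BAK. It measured 327, 259.7 and 260.1 CPM in control and 174, 207 and 202 CPM in 5-FU libraries. Every 5-FU library lay below the lowest control. On the log2 scale the difference was -0.54 (SE 0.14, edgeR adjusted p = 0.00437), a fall to 0.688 of the control level. This call was lost with upper-quartile factors (-0.18, edgeR adjusted p = 0.219) and when only genes averaging 50 counts or more were tested (-0.29, edgeR adjusted p = 0.0671), though the direction held.

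BCL2, the founding member of the family, was the least counted of the pro-survival genes. Its level was 20.2, 13.3 and 24.5 CPM in control and 9.12, 9.70 and 9.66 CPM in 5-FU libraries. The 5-FU libraries were tightly grouped below all controls, which spread widely. BCL2 fell by 1.03 on the log2 scale (SE 0.21, edgeR adjusted p = 0.000898), to 0.491 of the control level, and passed under all 18 alternatives.

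BCL2L1 and BCL2L2 did not pass the test. BCL2L1 had 249, 208 and 193 CPM in control and 155, 219 and 180.0 CPM in 5-FU libraries, and the groups overlapped. Its log2 fold change of -0.23 had a 95% interval from -0.57 to 0.11 (edgeR adjusted p = 0.197). BCL2L2, the most even member, had 51.4, 56.0 and 54.6 CPM in control and 51.7, 53.6 and 51.0 CPM in 5-FU libraries. That is a log2 fold change of -0.05, with a 95% interval from -0.29 to 0.18 (edgeR adjusted p = 0.682). The sign of both depends on scaling: with upper-quartile factors BCL2L1 came to 0.12 and BCL2L2 to 0.31, the latter past the threshold (edgeR adjusted p = 0.0235). Without the low-count filter BCL2L1 passed as lower (-0.38, edgeR adjusted p = 0.0247).

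The effector BAK1 encodes BAK, which resides in the outer mitochondrial membrane and forms pores there. It measured 47.3, 48.4 and 50.5 CPM in control and 31.4, 34.1 and 29.5 CPM in 5-FU libraries. The groups were far apart for their narrow spread. BAK1 fell by 0.62 on the log2 scale (SE 0.11, edgeR adjusted p = 0.000509), and lost its call only with upper-quartile factors (-0.26, edgeR adjusted p = 0.0542).

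BID links death receptors to mitochondria: caspase-8 cleaves it, and the fragment activates BAK and BAX. It went from 92.0, 69.4 and 85.1 CPM in control to 23.0, 26.7 and 26.0 CPM in 5-FU libraries. Even the lowest control library was well over the highest 5-FU library. The log2 fold change of -1.70 (SE 0.14, edgeR adjusted p = 2.23e-06) put BID at the 5.00 percentile of all tested genes, ordered from the largest fall to the largest rise. Over all 18 alternatives it ranged from -1.85 to -1.34 and always passed.

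BAD is a sensitizer that is bound by 14-3-3 proteins when phosphorylated. It measured 31.8, 32.8 and 35.04 CPM in control and 13.7, 17.1 and 19.1 CPM in 5-FU libraries. No 5-FU library reached the control range. BAD fell by 0.997 on the log2 scale (SE 0.15, edgeR adjusted p = 9.75e-05), to 0.501 of control, and passed under all 18 alternatives.

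BMF, a sensitizer that binds the dynein light chain DYNLL2, was the scarcest member in control. Control libraries held 45, 88 and 30 raw counts of it and 5-FU libraries 274, 150 and 160, or 2.02, 3.98 and 1.48 against 13.96, 7.82 and 7.58 CPM. The groups did not overlap, but the spread was wide in both, with control replicate 2 and 5-FU replicate 1 the highest of their groups. On the log2 scale the rise was 1.96 (SE 0.35, edgeR adjusted p = 0.000423), at the 90.7 percentile of all tested genes. Leaving out 5-FU replicate 1 gave 1.63 and leaving out control replicate 2 gave 2.44, both still called. On the log2(FPKM + 1) scale, which compresses low values, it was 0.85.

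BCL2L11 and BIK did not pass. BCL2L11 encodes BIM, an activator that all pro-survival members bind. It had 16.7, 15.5 and 16.9 CPM in control and 21.9, 16.9 and 19.2 CPM in 5-FU libraries. The highest control library, at 16.88 CPM, and the lowest 5-FU library, at 16.90 CPM, almost touched. Its log2 fold change of 0.24 had a 95% interval from -0.07 to 0.55 (edgeR adjusted p = 0.149). It passed with upper-quartile factors (0.60, edgeR adjusted p = 0.00310), with plain library totals (0.35, edgeR adjusted p = 0.0433) and at a mean count of at least 50 (0.49, edgeR adjusted p = 0.00945).

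BIK is a BH3-only protein of the endoplasmic reticulum. It had 34.0, 23.1 and 33.7 CPM in control and 32.2, 37.3 and 35.1 CPM in 5-FU libraries, and control replicate 2 was the only library that stood apart. The log2 fold change was 0.20, with a 95% interval from -0.14 to 0.55 (edgeR adjusted p = 0.260). It passed with upper-quartile factors (0.57, edgeR adjusted p = 0.00383) and at a mean count of at least 50 (0.46, edgeR adjusted p = 0.0197). In bulk RNA, fewer cells expressing a gene and less RNA of it per cell cannot be told apart. Groups did not overlap for 7 of the 10 members, against 74.3% of all tested genes.

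**Figure D2:**
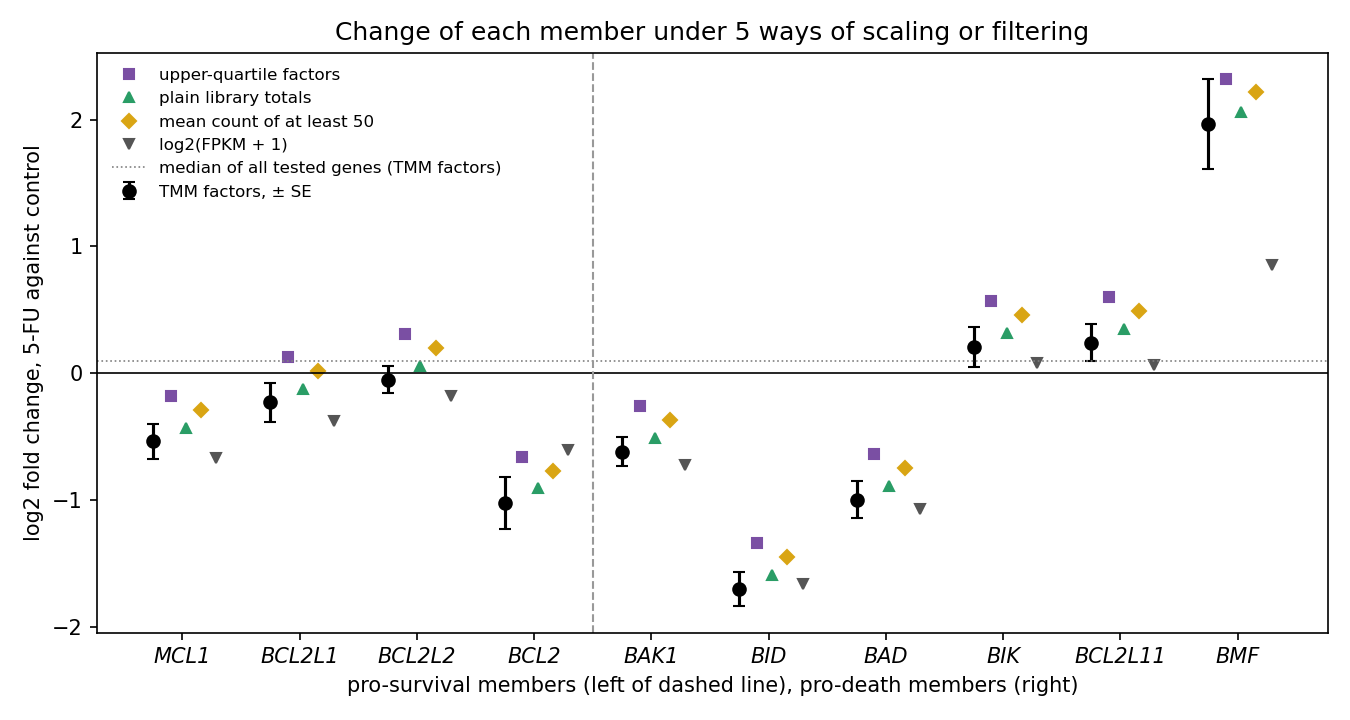
Log2 fold change of each member, 5-FU against control, with TMM factors (black, ± SE) and under 4 other choices of scaling, filter or unit; the dotted line is the median of all tested genes. BID stays lowest, BMF stays highest, and BCL2L1 and BCL2L2 change sign with upper-quartile factors. Over all 18 alternatives, of which 4 are drawn, BID ranged from -1.85 to -1.34.

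The choice of scaling shifts every gene by about the same amount. The median of all tested genes shifted by 0.36 with upper-quartile factors and by 0.11 with plain library totals. Ratios between members within a library, which need no scaling between libraries, were therefore also taken. They were chosen after the values were seen and carry no test. The count of MCL1 over that of BID was 3.55, 3.74 and 3.06 in control and 7.54, 7.77 and 7.77 in 5-FU libraries.

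Levels of different genes were compared per length, in the authors' deposited FPKM (a fragment level corrected for the length of the gene). In control BCL2L1 (67.9 ± 9.57 FPKM, SD, n = 3) and MCL1 (67.0 ± 9.75 FPKM) led the 10 members and could not be ordered, since their ranges overlapped. BIK followed at 33.01 ± 7.24 FPKM and BAK1 at 22.9 ± 0.93 FPKM. BAD (20.2 ± 1.162 FPKM) and BID (19.2 ± 2.99 FPKM) overlapped each other and lay above BCL2L2 (13.4 ± 0.45 FPKM). BCL2L11 (2.55 ± 0.15 FPKM), BCL2 (1.71 ± 0.52 FPKM) and BMF (0.47 ± 0.24 FPKM) came last, each range apart from the next.

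After 5-FU the top of the order was BCL2L1 (52.5 ± 10.5 FPKM), MCL1 (41.8 ± 5.15 FPKM) and BIK (34.4 ± 3.53 FPKM), with each overlapping the next. BAK1 (13.4 ± 1.10 FPKM), BCL2L2 (11.7 ± 0.55 FPKM), BAD (9.16 ± 1.78 FPKM) and BID (5.33 ± 0.57 FPKM) followed, each range apart from the next. BID and BAD, which lay above BCL2L2 in control, both lay below it after 5-FU. BCL2L11 (2.72 ± 0.27 FPKM) was then followed by BMF (1.67 ± 0.56 FPKM), which had passed BCL2 (0.76 ± 0.05 FPKM).

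The summed level of the 4 pro-survival genes was 172, 139 and 139 FPKM in control and 89.9, 121 and 109 FPKM in 5-FU libraries. The 6 pro-death genes summed to 104, 85.4 and 105 FPKM in control and to 60.5, 71.2 and 68.4 FPKM in 5-FU libraries. Both sums were lower in every 5-FU library than in any control library. In TMM-normalized CPM the same held. Pro-survival sums were 532 to 648 in control and 389 to 489 in 5-FU libraries, pro-death sums 193 to 224 and 136 to 140. Either fall depends on scaling. FPKM constants were 0.892 to 0.986 times the count total in control and 1.07 to 1.156 times in 5-FU libraries. Sums with upper-quartile factors, which shifted the median gene by 0.36, were not taken. Whether either sum stays lower in every 5-FU library under those factors is therefore not shown. The balance of the sums did not separate the groups. Pro-survival genes made up 62.3%, 62.0% and 56.9% of the family total in control and 59.8%, 63.1% and 61.3% in 5-FU libraries. Group means came to 60.4% ± 3.03 and 61.4% ± 1.63 (SD, n = 3 each), a difference of 1.01 percentage points, smaller than either SD. Without control replicate 3, the lowest of the controls, it was -0.74 points. The size of the difference depends on how the share is taken. From CPM, without division by length, the share was 72.8% ± 2.03 in control and 76.1% ± 1.86 after 5-FU, a difference of 3.31 points that exceeds either SD. In FPKM without MCL1 it was 45.8% ± 3.21 and 49.1% ± 2.32, a difference of 3.32 points, also larger than either SD. The ranges of the groups overlapped on all 3 measures.

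Within the pool of the 6 pro-death members the makeup differed between groups. BIK made up 33.3% ± 3.87 of the FPKM of those 6 in control and 51.5% ± 1.06 after 5-FU (SD, n = 3 each). BID made up 19.5% ± 1.20 and 7.98% ± 0.23. The ratio of BIK to BID in FPKM went from 1.73, 1.55 and 1.84 to 6.52, 6.53 and 6.30, a separation many times the spread within a group. The ratio of BCL2L11 to BMF was 6.43 ± 3.08 in control and 1.71 ± 0.40 after 5-FU. On the pro-survival side BCL2L1 over MCL1 was 1.01 ± 0.04 in control and 1.25 ± 0.13 in 5-FU libraries, again without overlap.

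**Figure D3:**
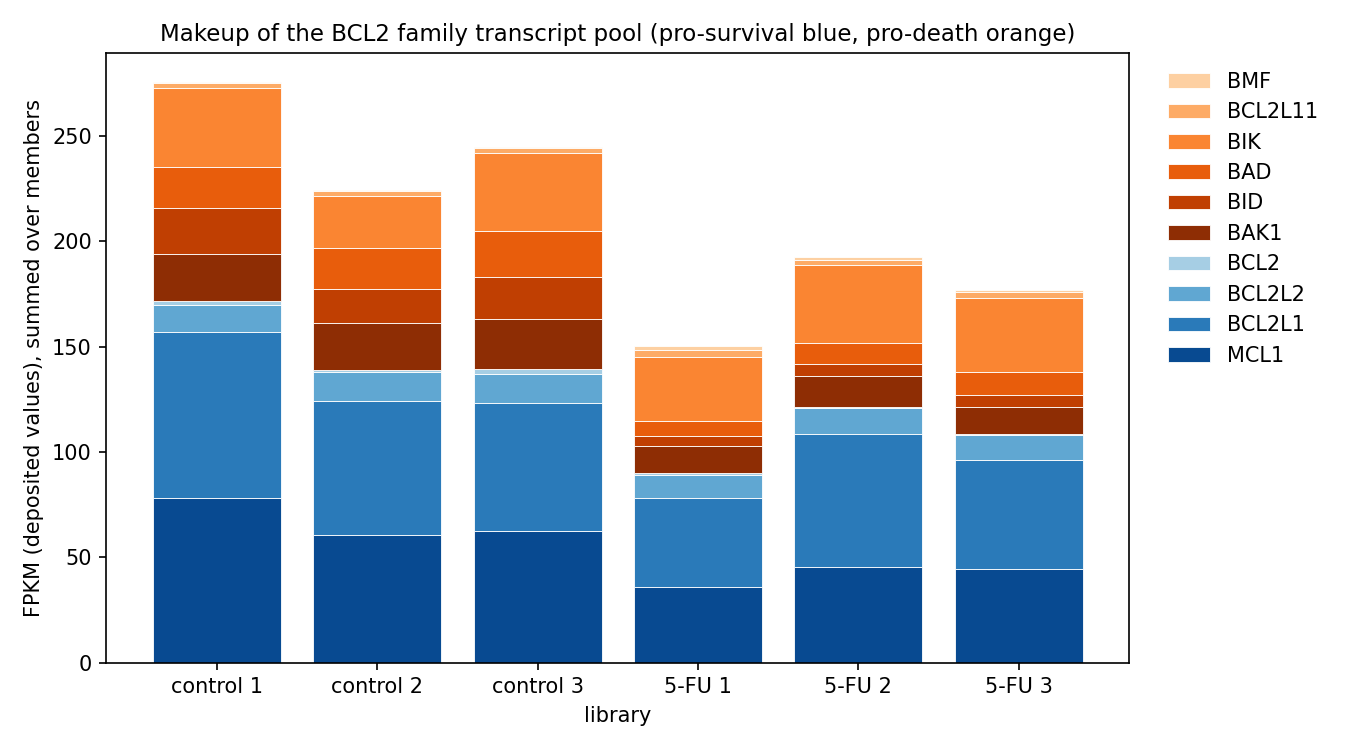
Stacked deposited FPKM of the 10 members in each library, pro-survival genes in blue and pro-death genes in orange. In FPKM the pool is smaller in each 5-FU library, a fall that depends on scaling. The pro-survival share stays between 56.9% and 63.1%, and the BID band is narrower in the 5-FU libraries.

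Several members share exonic bases with other annotated genes, and whether counting used strand is not stated. Exons of the antisense gene ABALON cover 43.0% of the exonic bases of BCL2L1; ABALON had a mean count of 375 in control and 115 in 5-FU libraries. GPR137 on the opposite strand covers 23.7% of BAD, MIR4435-2HG 10.9% of BCL2L11 and BMF-AS1, with no counts, 8.46% of BMF. The readthrough gene BCL2L2-PABPN1 shares 19.4% of BCL2L2 on the same strand, and PPP1R3E 4.92% on the other. Reads in those stretches cannot be assigned from the tables, so these values are uncertain to that extent. BID, BIK and BCL2 share no exonic base with another gene, MCL1 shares 0.05% and BAK1 4.11%.

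On GRCh38, MCL1 (ENSG00000143384) lies on chromosome 1 at 150574551 to 150579738, BCL2L1 (ENSG00000171552) on chromosome 20 at 31664452 to 31723989 and BCL2 (ENSG00000171791) on chromosome 18 at 63123346 to 63320128. BCL2L2 (ENSG00000129473) lies on chromosome 14 at 23298790 to 23311759. Of the pro-death genes, BAK1 (ENSG00000030110) is on chromosome 6 at 33572547 to 33580293 and BAD (ENSG00000002330) on chromosome 11 at 64269830 to 64284704. BID (ENSG00000015475), at 17734138 to 17774770, and BIK (ENSG00000100290), at 43110748 to 43129712, are both on chromosome 22. BCL2L11 (ENSG00000153094) is on chromosome 2 at 111119378 to 111168447 and BMF (ENSG00000104081) on chromosome 15 at 40087890 to 40108892. BCL2L2, BIK and BCL2L11 are on the plus strand and the other members on the minus strand.

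Of 13 other genes counted with the BCL2 family 11 were tested. Of these 3 rose, 3 fell and 5 missed the threshold (median 0.09 on the log2 scale). Of all tested genes 70.2% were called, 36.3% higher and 33.9% lower. The risers include BCL2L10, which passed the low-count filter only through its 5-FU libraries. BBC3, which encodes the BH3-only protein PUMA and is a p53 target, rose from 28.1, 44.8 and 32.2 CPM to 81.3, 90.2 and 77.5 CPM (log2 fold change 1.24, SE 0.16, edgeR adjusted p = 4.71e-05). The effector BAX, by contrast, had a log2 fold change of 0.10 (SE 0.15, edgeR adjusted p = 0.556), with 139, 103 and 140.1 CPM in control and 124, 153 and 132 CPM in 5-FU libraries. PMAIP1, which encodes NOXA, a BH3-only partner of MCL1, had -0.09 (SE 0.16, edgeR adjusted p = 0.635). The sign of PMAIP1 depends on scaling (0.26 with upper-quartile factors) and that of BAX on the filter (-0.049 without one). BAX passed as higher with upper-quartile factors (0.46) and at a mean count of 50 or more (0.35). BOK (-0.80), an effector-like member, BCL2L13 (-0.80), a receptor of mitophagy, and BCL2L12 (-1.96) fell. Exons of IRF3 on the opposite strand cover 33.1% of BCL2L12.

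BNIP3, a mitophagy receptor, was called higher (0.57, edgeR adjusted p = 0.0466), a call lost under 12 of 16 alternatives, among them leaving out each of the 3 controls, 5-FU replicate 1 or 5-FU replicate 2 (0.42 to 0.62 on the log2 scale). BNIP3L (-0.20), BCL2L15 (0.09) and BCL2L14 (0.78) did not pass, but each passed under some alternative. BCL2L14 passed as higher without 5-FU replicate 3 (1.05, edgeR adjusted p = 0.0110), with upper-quartile factors (1.14) and with plain library totals (0.89). BNIP3L passed as lower without the low-count filter (-0.35), and BCL2L15 as higher with upper-quartile factors (0.45). The third riser, BCL2L10, is named after its values were seen: its raw count was 1 in each control and 20, 12 and 19 after 5-FU.

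The shares to read the next counts against are those of all tested genes, 33.9% lower and 36.3% higher, and of the most abundant quintile, 60.8% lower and 17.5% higher. Genes that act at the outer membrane or after it opens fell for 9 of 11 tested and rose for 2, at a median of -1.41. The channels VDAC1 (-1.65, SE 0.16) and VDAC3 (-1.58, SE 0.14) and the nuclease ENDOG (-1.95, SE 0.18) had the smallest p of them (edgeR adjusted p = 5.47e-06, 4.15e-06 and 3.92e-06). The initiator caspase gene CASP9 (0.76) and DIABLO (1.45), an antagonist of caspase inhibitors, rose; they are named after their values were seen. DIABLO is uncertain, since a second gene record of that name shares 29.6% of its exonic bases, and exons of SPOUT1 on the opposite strand cover 39.2% of ENDOG.

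In the death receptor arm that leads to BID, 4 of 8 genes rose and 2 fell, at a median of 0.26, with the number called near the 70.2% of all tested genes. TRADD (0.84, SE 0.13) and CFLAR (0.82, SE 0.17), the latter an inhibitor of caspase-8 activation, rose. The adaptor FADD fell (-1.98, SE 0.16, edgeR adjusted p = 2.65e-06), though an antisense gene with no counts covers 54.9% of it. The receptors FAS (0.87) and TNFRSF10B (0.74) rose and TNFRSF1A fell (-0.53); these are named after their values were seen. FAS lost its call on the 3 FPKM settings (0.62 to 0.73), and TNFRSF1A with upper-quartile factors (-0.17) and at a mean count of 50 or more (-0.28). BID itself, downstream of these receptors, had the lowest log2 fold change of the 10 members.

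Enzymes that set the turnover of MCL1 protein went both ways, with 4 of 7 lower, 2 higher and a median of -0.37. FBXW7, the substrate receptor of a ubiquitin ligase, rose (0.94, SE 0.12), while the deubiquitinase USP13 (-1.91, SE 0.13) and the mitochondrial ligase MARCH5 (-0.83, SE 0.12) fell. HUWE1 (-0.66), USP9X (-0.37) and BTRC (0.36), named after their values were seen, made up the rest of those called. BTRC lost its call under 8 of 18 alternatives (down to 0.18), among them leaving out control replicate 1 (0.31), control replicate 2 (0.29) or 5-FU replicate 1 (0.28). USP9X lost it under 4 of 18, among them leaving out 5-FU replicate 2 (-0.34) and upper-quartile factors (-0.014).

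Of 17 kinases, phosphatases and 14-3-3 proteins that act on BAD, 12 fell and the other 5 did not pass, at a median of -0.74. The number called is close to the 70.2% called among all tested genes. Every call was lower, where 33.9% of all tested genes and 60.8% of the most abundant quintile were lower. The 14-3-3 genes named next lie in that quintile. The 14-3-3 genes YWHAE (-2.19, SE 0.17), YWHAB (-1.45, SE 0.15) and YWHAG (-1.30, SE 0.14) had the smallest p (edgeR adjusted p = 2.00e-06, 8.25e-06 and 1.29e-05). Among the dynein light chains, which hold BIM and BMF, and the FOXO factors, 2 of 5 fell and 1 rose. DYNLL1 (-1.38, SE 0.17) and DYNLL2 (-0.75, SE 0.13) fell, and FOXO1 rose (0.49, SE 0.14), a call lost in DESeq2 (0.34) and on the FPKM scales (0.28 to 0.34).

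**Figure D4:**
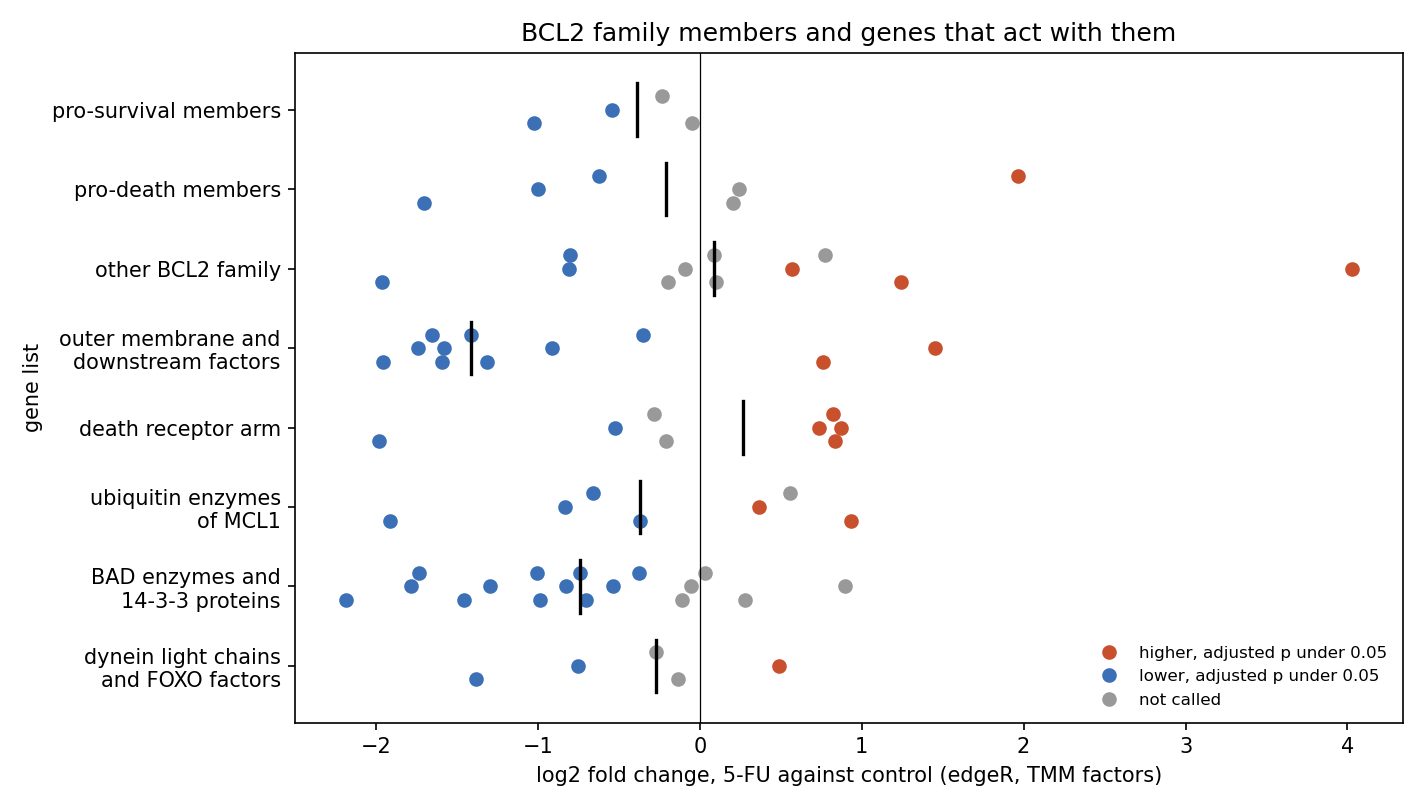
Log2 fold change of every tested gene in each list, coloured by its edgeR call, with the median of each list as a black bar. Of the 8 lists drawn, the outer membrane list has the lowest median, -1.41, and the death receptor arm the highest, 0.26.

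The genes with the profile nearest to that of 2 members were taken from 11418 protein-coding genes whose mean count reached 100, by the Euclidean distance between log2 CPM values centred on each gene's control mean over 6 libraries. For BID, the pro-death member with the smallest p, they were MCUB (distance 0.10), UBE2L3 (0.13) and DCPS (0.14). For BCL2, the pro-survival member with the smallest p, they were TONSL (0.12), ATAD3A (0.18) and DSN1 (0.19).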

How the data were processed

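Gene counts of 6 libraries were analysed. Per the labels' protocols, a NEBNext Ultra RNA kit was used. The submitters' processing notes name GRCh38, DESeq2 1.16.1, featureCounts 1.5.0-p3 and HISAT2 2.0.5. They state neither the strand setting nor how shared reads were handled. The deposited values are whole-number counts per gene and, in a second table, FPKM; the deposited FPKM equal the count divided by gene length and by 1 constant per library, 0.892 to 0.986 times the count total in control and 1.07 to 1.156 times in 5-FU libraries. All 58735 identifiers and positions matched GENCODE release 29.

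Groups came from the treatment label. edgeR 4.0.16 in R 4.3.3 was run on all 6 libraries with filterByExpr (minimum count 10, minimum total 15), TMM factors and group alone; p-values were adjusted by Benjamini-Hochberg over 19771 genes. The script was tested on simulated data. CPM are TMM-normalized; the SE is the unshrunk coefficient over the square root of F, and 95% intervals use the test's degrees of freedom. Members and lists were chosen with earlier results of these data known. Named genes are the members, other BCL2 family genes whose mean count reached 10, up to 3 called genes of smallest p in each other list, and the 3 nearest profiles of the called member of smallest p in each class. Alternatives were other scaling factors, filters, DESeq2 1.42.0, limma 3.58.1 (voom, or trend on log2(FPKM + 1) and log2(FPKM + 0.1)), the replicate number as a block and leaving out each library. Counting error alone is small at these totals. Chi-square per gene between libraries of a group was 10.2 to 26.5, so none was a copy of another.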

Additional observations from a re-analysis of the deposited data

How the results depend on the processing

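The 10 members were compared with the main result under 18 alternatives each; 166 of 180 comparisons kept direction and side of the threshold. Calls of BCL2, BID, BAD and BMF held in all of them, and no call of a member changed when a library was left out. Members lower numbered 3 with upper-quartile factors, 4 at a mean count of at least 50 and 6 without the low-count filter, where BCL2L1 was added (-0.38), against 5; members higher numbered 4 with upper-quartile factors, 2 with plain library totals and 3 at a mean count of at least 50, against 1. BCL2L1 turned to 0.12 and 0.018, and BCL2L2 to 0.31 and 0.20, with upper-quartile factors and at a mean count of at least 50; BCL2L2 was 0.056 with plain library totals. Over all genes, higher calls numbered 4320 on log2(FPKM + 1) and 4268 on log2(FPKM + 0.1), against 7171. Higher genes made up 51.7% of calls, but 67.5% with upper-quartile factors and 37.7% and 37.5% on those FPKM scales.

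BAX (0.10) turned to -0.049 without the low-count filter, -0.046 in DESeq2, -0.037 on log2(FPKM + 1) with or without a filter and -0.038 on log2(FPKM + 0.1); leaving out a library gave -0.068 (without control replicate 2) to 0.18. PMAIP1 turned to 0.26 with upper-quartile factors, 0.017 with plain totals and 0.16 at a mean count of at least 50; leaving out a library gave -0.31 to 0.064 (without 5-FU replicate 1). BNIP3L turned to 0.16 with upper-quartile factors and 0.050 at a mean count of at least 50. BCL2L15 turned to -0.058 without the low-count filter, -0.053 in DESeq2, -0.023 on log2(FPKM + 1) with or without a filter and -0.024 on log2(FPKM + 0.1); leaving out a library gave -0.097 (without control replicate 3) to 0.28. The cause was not tested. The difference in pro-survival share ranged from -0.74 to 1.97 points when a library was left out.

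With the replicate number as a replicate block, 13243 genes and the same number of members, 6, were called. The labels do not say whether same-numbered libraries were paired. The correlations of their deviations were -0.07, -0.20 and 0.06, and not every library correlated best with its own number. With 3 libraries per group these correlations cannot exclude pairing. The block changed no member's call. Depth limits BMF most, at 30 to 88 counts in control.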
